A study of Hordeum vulgare with 12 samples.

Results

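The genes described here are the cytosolic ribosomal protein genes of barley (Hordeum vulgare), as measured by RNA sequencing of leaves. Members were the genes whose gene ontology terms, as listed in the deposited table, place them in the cytosolic large or small ribosomal subunit and whose level was 1 FPKM or more in 3 or more of 12 libraries. FPKM is a read count per length of the gene and per size of the library, so levels can be set side by side between genes on that scale. Of 30157 genes in the table, 331 carried one of the terms, and 218 of these passed the filter, 135 of the large subunit and 84 of the small one, with 1 gene, HORVU6Hr1G014970, carrying both terms. The libraries came from leaves of accession BCS24 under drought, BCS24 in control, BCS8 under drought and BCS8 in control, with 3 libraries in each of the 4 groups. The label "ck" was read as control. The severity and length of the drought, the age of the plants and whether the libraries of a group came from separate plants are not given, so p-values measure the spread between these libraries, which may be technical.

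Cytosolic ribosomes are built from a large and a small subunit, each a scaffold of ribosomal RNA that carries one copy of most ribosomal proteins. They translate the messages made in the nucleus, while chloroplasts and mitochondria keep ribosomes of a bacterial type of their own. In plants most cytosolic ribosomal proteins are encoded by small families of nearly identical genes, and their messages are usually made together and in amounts that follow growth.

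Libraries held 49553836 to 61212440 counts. Genes typed as rRNA took 0.486 ± 0.248% of counts in BCS24 drought, 1.35 ± 0.775% in BCS24 control, 1.65 ± 0.666% in BCS8 drought and 0.77 ± 0.239% in BCS8 control libraries (mean ± SD, n = 3 each). The leaf origin of the libraries was visible in 9 photosystem I genes, whose summed FPKM averaged between 2736 and 4705 in the 4 groups. No 2 libraries of a group agreed within sampling noise.

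The label held for most members, not for all. An orthology number of a eukaryotic-type ribosomal protein, the type used in the cytosol, was listed for 172 of the 218 members, 108 of the large and 64 of the small subunit, and these fell into 72 protein families. A further 18 members had the number of a bacterial-type ribosomal protein, and some of them were described in the table as chloroplastic. Another 6 had an unrelated number and 22 had none. One of the 22, HORVU5Hr1G047980, was described as the ribosome assembly factor mrt4, a protein known from yeast to take part in building the large subunit. The median of the mean FPKM was 40.3 for the eukaryotic-type members, 9.86 for the bacterial-type ones and 4.94 for those without a number.

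The 113 annotated genes below the filter stayed near 0. Their highest value in any library had a median of 0.139 FPKM, and only 1 of them, HORVU5Hr1G064700, reached 1 FPKM in any library, at 1.58. Of the 47 with a description, 40 were described as chloroplastic, and 56 of the 113 had the orthology number of the bacterial-type protein L2. The lowest mean among members was 1.09 FPKM, in HORVU3Hr1G003760, and 8 members had a mean below 2.

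The first question was how the accessions compared. Ribosomal protein transcripts were less abundant in BCS24 than in BCS8, in drought and in control alike. They took 1.10, 1.29 and 1.17% of all counts in BCS24 drought, 1.30, 1.07 and 1.19% in BCS24 control, 1.49, 1.88 and 1.81% in BCS8 drought and 1.58, 1.75 and 1.63% in BCS8 control libraries. Every BCS24 library lay below every BCS8 library. In bulk leaf RNA, fewer cells of a type and less RNA per cell cannot be told apart.

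Summed over the members, the level was 7072, 8215 and 7560 FPKM in BCS24 drought libraries, against 9538, 12534 and 11742 FPKM in BCS8 drought libraries. In control it was 8434, 6748 and 7541 FPKM in BCS24, against 10256, 11463 and 10386 FPKM in BCS8. The groups did not overlap in either condition. The mean sum in BCS24 was 32.4% lower than in BCS8 under drought (7616 ± 574 against 11272 ± 1552 FPKM) and 29.2% lower in control (7575 ± 843 against 10701 ± 663 FPKM, SD, n = 3).

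**Figure D1:**
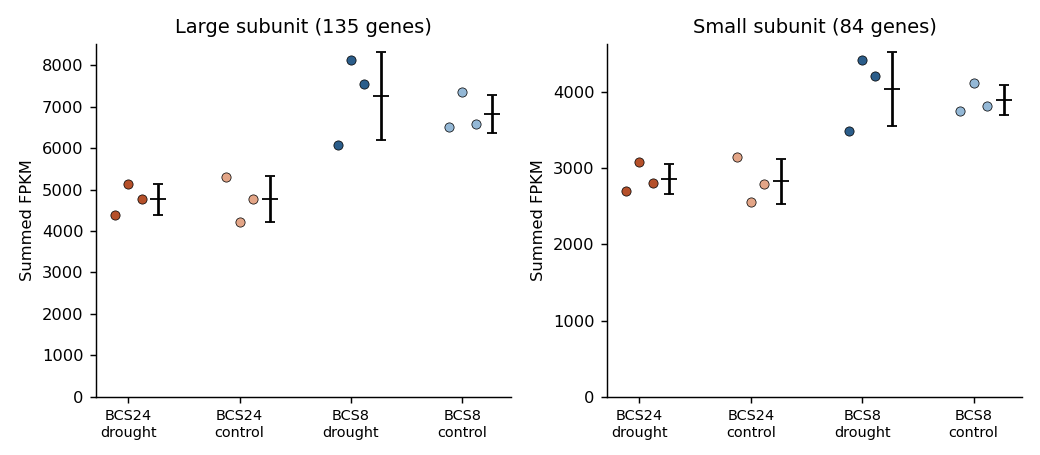
Summed FPKM of the large subunit genes (left) and small subunit genes (right) in each library, with the mean and SD of the 3 libraries of a group beside the points. All 6 BCS24 libraries lie below all 6 BCS8 libraries in both subunits.

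Both subunits showed the difference. The large subunit sum was 34.3% lower in BCS24 under drought and 30.1% lower in control, and the small subunit sum was 29.2% and 27.4% lower. The ratio of the large to the small subunit sum was 1.62, 1.67 and 1.70 in BCS24 drought libraries and 1.69, 1.65 and 1.71 in BCS24 control libraries. It was 1.74, 1.84 and 1.79 in BCS8 drought libraries and 1.73, 1.78 and 1.72 in BCS8 control libraries. The ratio was lower in every BCS24 library than in any BCS8 library, though the closest libraries of the accessions lay side by side. These were control replicate 3 of each accession, at 1.71 in BCS24 and 1.72 in BCS8. The large subunit sums include 3 L37e genes, described below, with almost no counts in BCS24 and 55.7 FPKM in BCS8 control replicate 3. In that BCS8 library the large subunit sum was 6587 FPKM and the small subunit sum 3820 FPKM. With the 55.7 FPKM taken off, its ratio falls just below that of BCS24 control replicate 3, where the 3 genes had 0 FPKM. The full separation of the accessions by this ratio thus does not hold without these 3 genes.

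Gene by gene, edgeR's quasi-likelihood test over all 17342 tested genes, with Benjamini-Hochberg adjustment and a threshold of 0.05, called 123 of the 218 members lower in BCS24 than in BCS8 under drought and 4 higher. Over all tested genes 14.1% were called lower and 13.3% higher in that comparison. In control 115 members were lower and 3 higher, where 9.15% of all tested genes were lower and 9.98% higher. By subunit, 81 of 135 large and 43 of 84 small subunit genes were lower under drought, and 73 and 42 in control. Of the genes called lower, 95 were called in both conditions, which is 77.2% of the drought calls and 82.6% of the control calls.

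The shift was moderate in size and shared by most members. The median log2 fold change, BCS24 over BCS8, was -0.53 under drought (quartiles -0.70 and -0.31) and -0.54 in control (quartiles -0.67 and -0.32), against medians of -0.02 and -0.01 over all tested genes. The fold change was negative in 198 of 218 members in each condition. In FPKM, 168 members under drought and 169 in control had all 3 BCS24 libraries below all 3 BCS8 libraries, which is 77.1% and 77.5% of members, against 22.8% and 21.7% of all tested genes. For 128 members, 58.7%, all 6 BCS24 libraries lay below all 6 BCS8 libraries, against 7.7% of all tested genes, and for 2 members, HORVU5Hr1G047980 and HORVU7Hr1G103380, all 6 lay above, against 6.1%.

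The count of calls changed with single libraries. Without BCS24 drought replicate 1 the drought comparison called 45 members in either direction in place of 127, without BCS24 drought replicate 3 it called 77 and without BCS8 drought replicate 2 it called 55. With BCS24 control replicate 2 left out the control comparison called 28 in place of 118, and it called 43, 46 and 61 without BCS24 control replicate 3, BCS8 control replicate 2 and BCS8 control replicate 3. In those same fits the median log2 fold change of the members stayed between -0.53 and -0.44 under drought and between -0.55 and -0.45 in control. With the rRNA share of each library as a covariate the counts were 50 and 62. The shares of all tested genes called in these fits are not given here. Whether the members lost calls more than other genes did can thus not be told.

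**Figure D2:**
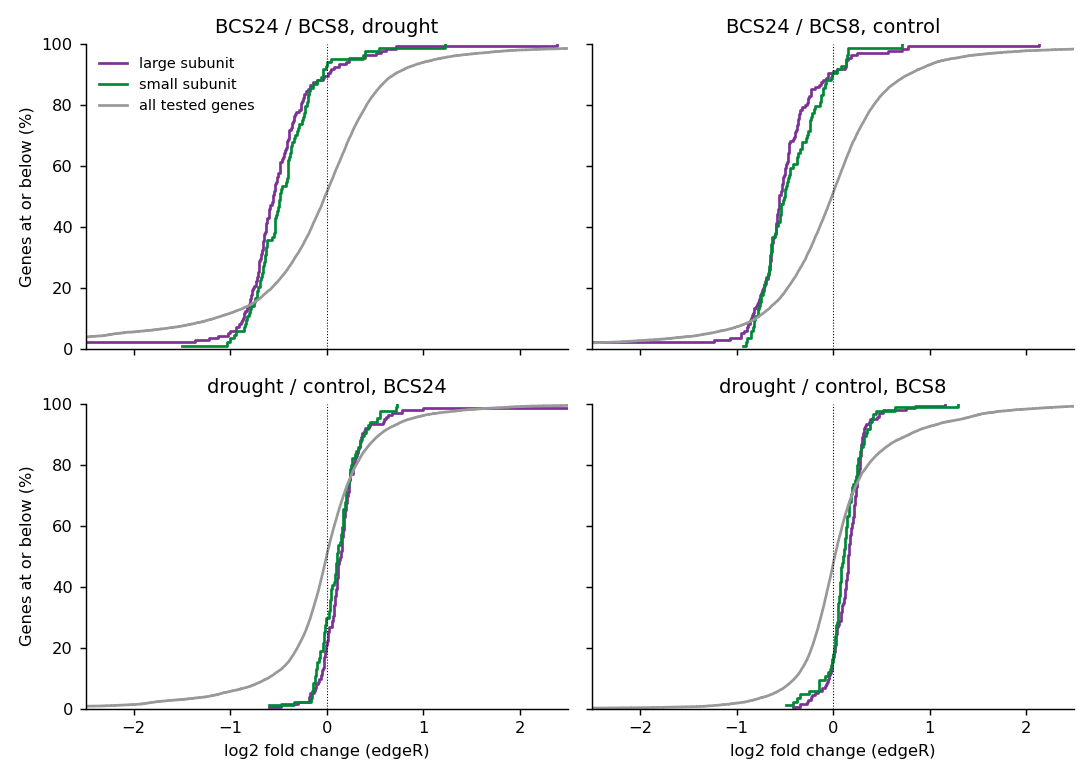
Cumulative percentage of genes (vertical axis) at or below each log2 fold change (horizontal axis) for large subunit genes, small subunit genes and all tested genes, in 4 comparisons, with values beyond 2.5 on either side outside the frame. In the upper panels (BCS24 over BCS8) both subunits lie left of all tested genes, with 198 of 218 members below 0 in each. The lower panels (drought over control) show members close to 0, with medians of 0.13 in BCS24 and 0.15 in BCS8.

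Genes of each eukaryotic-type protein family were also summed, which gives the family's level whichever copy was used. All 72 family sums were lower by mean in BCS24 than in BCS8, in both conditions. No library overlapped for 71 of the 72 families under drought, S21e being the exception, and for 70 of 72 in control, where S21e and L18Ae were the exceptions. Over all sums by orthology number, 24.3% under drought and 27.4% in control were lower without overlap. The median log2 ratio over families was -0.63 under drought (quartiles -0.76 and -0.50) and -0.53 in control (quartiles -0.63 and -0.43). These ratios, like the sums above, are of FPKM without further scaling. On the log2(FPKM + 1) scale the median of all tested genes, BCS24 over BCS8, was -0.07 under drought and 0.003 in control.

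The families below are named for what their proteins do and were picked after their values were seen. The acidic stalk of the large subunit, which recruits translation factors, is made of P0, P1 and P2. P2 summed to 111, 108 and 111 FPKM in BCS24 drought libraries, against 174, 214 and 229 FPKM in BCS8 drought libraries. In control it summed to 141, 108 and 120 FPKM in BCS24, against 190, 216 and 193 FPKM in BCS8. Both conditions were without overlap, with log2 ratios of -0.90 under drought and -0.70 in control.

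P1, the partner of P2, had log2 ratios of -0.81 and -0.63. P0, which anchors the stalk to the ribosomal RNA, had the smallest shift of the stalk proteins by mean, at 51.3 ± 1.1 against 64.6 ± 5.1 FPKM under drought and 53.9 ± 5.8 against 67.9 ± 2.3 FPKM in control (BCS24 against BCS8, SD, n = 3), a log2 ratio of -0.33 in each. Whether P0 and P2 differed in their shift was not tested.

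L5e and L11e travel with the 5S ribosomal RNA into the large subunit. L11e had log2 ratios of -0.53 under drought and -0.58 in control, and L5e of -0.34 and -0.62. L3e, which lies close to the site where peptide bonds are formed, stood at 97.1 ± 6.9 FPKM in BCS24, against 126 ± 15.6 FPKM in BCS8 under drought, and at 89.97 ± 9.5 against 129 ± 8.1 FPKM in control. L10e, which joins late in the assembly of the large subunit, is encoded by a single member, HORVU1Hr1G024710, with the highest mean FPKM of all members. It measured 169, 197 and 152 FPKM in BCS24 drought, 180, 163 and 177 FPKM in BCS24 control, 224, 232 and 222 FPKM in BCS8 drought and 210, 232 and 239 FPKM in BCS8 control libraries. It passed the test with log2 fold changes of -0.32 ± 0.11 (SE, adjusted p = 0.0499) under drought and -0.40 ± 0.11 (adjusted p = 0.0305) in control.

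In the small subunit, S27Ae is made as a fusion to ubiquitin, so its genes also supply that protein. Its 3 genes were all called lower in both conditions, with log2 fold changes from -1.01 to -0.62 under drought and from -0.86 to -0.65 in control. S6e, which is phosphorylated downstream of the growth regulator TOR, had family ratios of -0.43 and -0.28. Of its 3 genes only HORVU2Hr1G029890 passed the test, under drought, at -0.50 (adjusted p = 0.0172). The 3 genes of S29e, a small zinc-binding protein, were called lower in both conditions, with HORVU5Hr1G098740 at 40.04, 46.6 and 41.3 FPKM in BCS24 drought libraries, against 69.8, 106 and 86.5 FPKM in BCS8 drought libraries. S21e, with the single gene HORVU2Hr1G019960, did not pass in either condition, at -0.15 (adjusted p = 0.514) and -0.02 (adjusted p = 0.946).

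**Figure D3:**
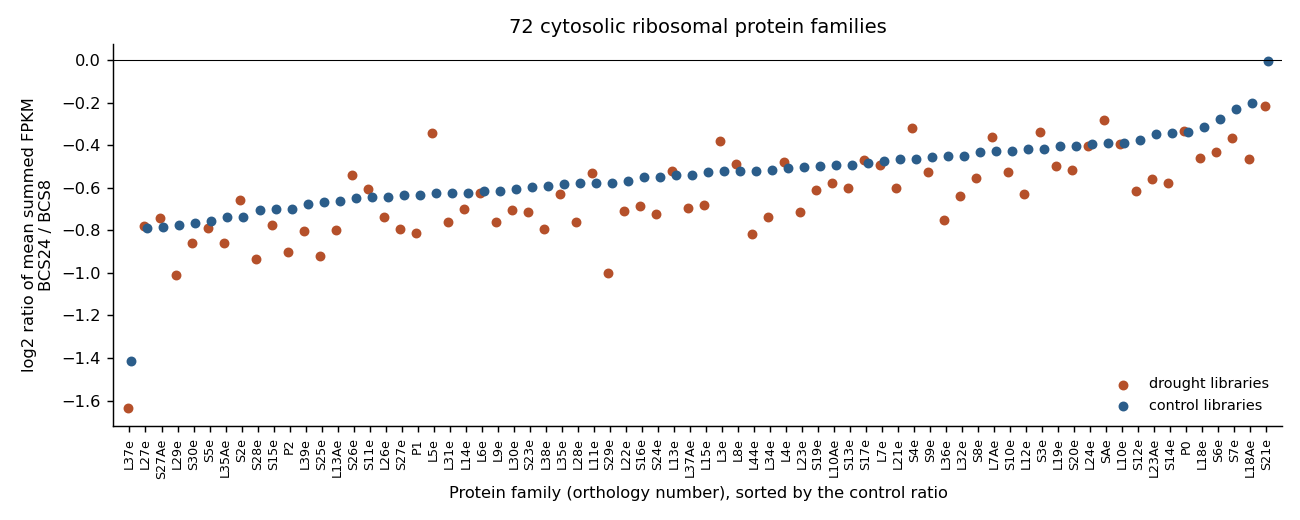
Log2 ratio of the mean summed FPKM, BCS24 over BCS8, for each of the 72 eukaryotic-type protein families (one column each), sorted by the ratio in control libraries. All points lie below 0, L37e lies lowest at -1.64 under drought and -1.42 in control, and S21e lies highest.

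Members were also compared by annotation type. Eukaryotic-type members had a median log2 fold change of -0.57 under drought, with 116 of 172 called lower and 1 higher, and of -0.56 in control, with 103 lower and 1 higher. Members without an orthology number had medians of -0.03 and 0.02, with 3 of 22 lower and 3 higher under drought and 0 lower and 2 higher in control. The 3 lower ones were HORVU3Hr1G079990, HORVU1Hr1G062810 and HORVU6Hr1G014970, at -1.13, -0.86 and -0.55. Bacterial-type members, the type of ribosomal protein made for organelles, had medians of -0.30 under drought, with 3 of 18 lower, and -0.53 in control, with 9 lower. The 3 were the L14 genes HORVU2Hr1G122020 and HORVU5Hr1G008710, at -0.94 and -0.78, and the L4 gene HORVU5Hr1G067110, at -0.62. The call of HORVU2Hr1G122020 under drought was lost in 11 of 23 alternatives, among them those without BCS24 drought replicate 1 or 3, BCS24 control replicate 3, BCS8 drought replicate 2 or 3, or BCS8 control replicate 1 or 3, at -0.94 to -0.74. That of HORVU3Hr1G079990 was lost without BCS24 drought replicate 1 or 3 or BCS8 drought replicate 1 or 2, at -1.15 to -0.94. Among the 9 were S5 (HORVU4Hr1G038570) at -0.83 ± 0.18 (adjusted p = 0.0119) and L5 (HORVU4Hr1G084410) at -1.07 ± 0.20 (adjusted p = 0.00576). The S5 call was lost without BCS24 control replicate 3, at -0.77, and the L5 call held in all 23 alternatives. Also among the 9 were HORVU2Hr1G122020, the S9 gene HORVU5Hr1G098340 and the L29 gene HORVU6Hr1G078290. Their calls in control were lost in 13, 5 and 3 of 23 alternatives. Differences between the types were not tested.

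**Figure D4:**
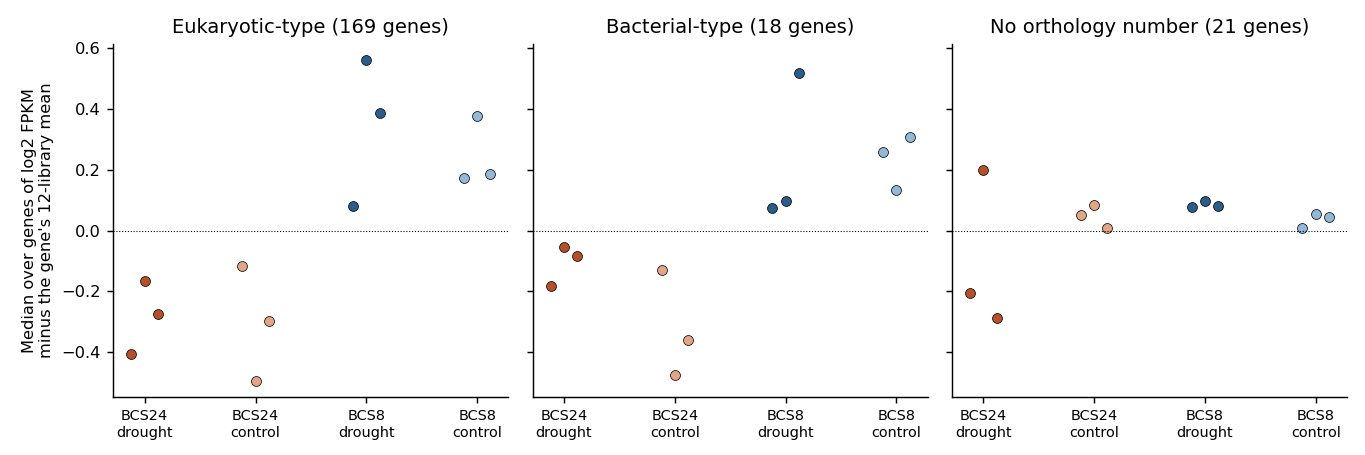
For each library, the median over genes of the log2 FPKM minus the mean of the gene over the 12 libraries, for eukaryotic-type, bacterial-type and unnumbered members with a value above 0 in every library (169, 18 and 21 genes). BCS24 libraries lie below 0 and BCS8 libraries above 0 in the first 2 panels, while in the third the accessions overlap.

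The rule for named genes took the 5 members of each subunit with the highest mean FPKM. P2 gene HORVU1Hr1G073640 had log2 fold changes of -0.87 ± 0.13 under drought (adjusted p = 0.00147) and -0.71 ± 0.13 in control (adjusted p = 0.00477). P1 gene HORVU7Hr1G075360 stood at -0.77 ± 0.17 and -0.71 ± 0.17 (adjusted p = 0.00967 and 0.0169). S24e gene HORVU7Hr1G088580 stood at -0.64 ± 0.15 and -0.57 ± 0.15 (adjusted p = 0.0139 and 0.028), and S9e gene HORVU5Hr1G038920 at -0.42 ± 0.12 and -0.45 ± 0.12 (adjusted p = 0.0286 in both). S4e gene HORVU1Hr1G021720 passed in control, at -0.48 (adjusted p = 0.0196), and not under drought, at -0.25 (adjusted p = 0.131). L18Ae gene HORVU3Hr1G060800 passed in neither, with 144, 135 and 148 FPKM in BCS24 drought, 184, 144 and 174 FPKM in BCS24 control, 161, 208 and 197 FPKM in BCS8 drought and 175, 180 and 160 FPKM in BCS8 control libraries.

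Within most families, the accessions divided their transcripts among the copies in much the same way. How reads shared between near-identical copies were counted is not given, so the shares carry that uncertainty. Of the 56 families with 2 or more genes, 47 had the same gene as the most abundant one in all 4 groups. In L23Ae, L31e and L7e the most abundant gene was 1 copy in both BCS24 groups and another in both BCS8 groups. In 43 families no gene's share of the family FPKM differed by 5 percentage points or more between BCS24 and BCS8 in control, and in 54 none differed by 10 or more. The median over families of the largest difference was 3.53 points. The largest differences were in L37e, L24e, S13e, L18Ae and S14e.

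L37e, a small zinc-binding protein of the large subunit, had 6 members, and 3 of them gave almost no counts in BCS24. HORVU0Hr1G003770 (chromosome Un, 17234602 to 17235024, minus strand, coordinates as the deposited table gives them) had 0 counts in all 6 BCS24 libraries, against 372, 485 and 609 counts in BCS8 drought and 348, 598 and 333 counts in BCS8 control libraries. Set against a floor of 3 counts in each BCS24 library, it was at least 160-fold lower in BCS24 under drought and at least 135-fold lower in control. HORVU0Hr1G003790 (Un, 17239461 to 17242886, minus strand) had 0, 0 and 3 counts in BCS24 drought and 0 in BCS24 control libraries, against 1417, 1635 and 2020 in BCS8 drought and 1315, 2017 and 1289 in BCS8 control libraries. It was at least 490-fold lower in BCS24 in control, and under drought its ratio was 0.000597 (95% exact interval for counting error 0.000123 to 0.00175).

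The third of these, HORVU0Hr1G030060 (Un, 168307579 to 168311002, minus strand), had 0, 0 and 2 counts in BCS24 drought and 0 in BCS24 control libraries, against 408, 543 and 720 in BCS8 drought and 390, 643 and 423 in BCS8 control libraries. It was at least 154-fold lower in control, with a ratio of 0.00121 under drought (0.000146 to 0.00437). Un holds sequence not placed on a chromosome. How reads shared between near-identical copies were counted is not given, so which L37e copy a read came from is uncertain, and absence of a gene and absence of its transcript cannot be told apart here.

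The other 3 L37e genes were measured in both accessions. HORVU6Hr1G090070 had 37.2, 55.6 and 45.8 FPKM in BCS24 drought libraries, against 76.7, 129 and 87.4 FPKM in BCS8 drought libraries (log2 fold change -1.003 ± 0.20, adjusted p = 0.00736). In control it had 47.2, 39.4 and 49.6 FPKM in BCS24, against 72.1, 90.7 and 82.1 FPKM in BCS8 (-0.86 ± 0.20, adjusted p = 0.0176). HORVU6Hr1G005390 was called lower as well, at -0.86 and -0.83 (adjusted p = 0.00288 and 0.00379). HORVU5Hr1G025500 did not pass, at 9.45 ± 0.79 against 10.2 ± 0.39 FPKM under drought and 10.6 ± 0.75 against 9.58 ± 1.3 FPKM in control (BCS24 against BCS8).

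Without the 3 near-silent genes the L37e sum had a log2 ratio of -0.95 under drought and -0.73 in control, against -1.64 and -1.42 with them. The 3 genes made up 2.20% of the difference in the summed FPKM of all members between the accessions in each condition. With the genes at 0 placed at their bounds, which lie in the same tail and so cannot move the median, the medians over all members were -0.53 under drought and -0.54 in control.

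**Figure D5:**
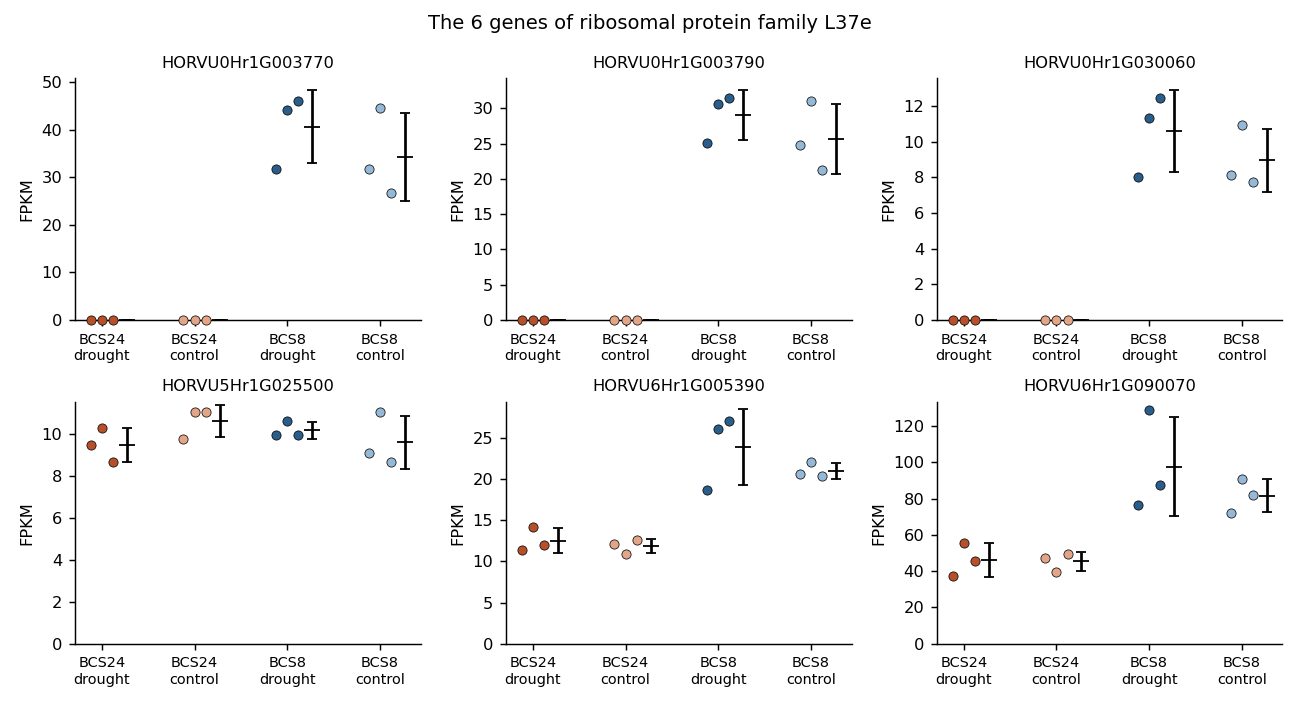
FPKM of the 6 L37e genes in each library, with the mean and SD of each group beside the points and a separate vertical scale per gene. The upper 3 genes lie at or near 0 in all 6 BCS24 libraries, HORVU6Hr1G005390 and HORVU6Hr1G090070 are lower in BCS24, and HORVU5Hr1G025500 overlaps between the accessions.

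L24e, a large subunit protein known from Arabidopsis to help ribosomes start again after short upstream reading frames, was carried by 1 shifting gene and 2 that did not pass. HORVU3Hr1G080130 had 46.5, 59.6 and 49.6 FPKM in BCS24 drought libraries, against 63.5, 92.7 and 82.2 FPKM in BCS8 drought libraries, and 52.3, 38.8 and 44.3 FPKM in BCS24 control, against 68.4, 82.3 and 76.8 FPKM in BCS8 control libraries. It was called lower in both conditions, at -0.54 ± 0.16 (adjusted p = 0.0346) and -0.76 ± 0.16 (adjusted p = 0.0119). HORVU5Hr1G008730 measured 32.3 ± 3.3 against 33.7 ± 3.8 FPKM under drought and 35.4 ± 3.1 against 34.02 ± 1.3 FPKM in control, with log2 fold changes of 0.01 and 0.04. HORVU5Hr1G111510 had log2 fold changes of -0.10 and 0.00. The share of HORVU3Hr1G080130 in the family was 48.4 ± 1.6% in BCS24 control, against 62.0 ± 2.5% in BCS8 control libraries.

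In S13e, S14e and L18Ae the difference in share came from 1 gene held nearer to its BCS8 level in control than its copies were. S13e gene HORVU7Hr1G075290 held 38.5 ± 2.7% of the family in BCS24 control, against 28.5 ± 1.3% in BCS8 control libraries, while the nearby HORVU7Hr1G075250 held 48.2 ± 0.9% against 56.1 ± 0.7%. S14e gene HORVU7Hr1G104220 held 49.1 ± 1.5% against 41.3 ± 2.5%, and its log2 fold changes of -0.26 and -0.10 did not pass. The other S14e genes, HORVU2Hr1G073150 and HORVU0Hr1G004130, were called lower in both conditions, at -0.80 and -0.66 under drought and -0.59 and -0.54 in control. The leading L18Ae gene, HORVU3Hr1G060800, held 75.3 ± 1.9% against 67.2 ± 2.1% (BCS24 against BCS8, SD, n = 3).

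Few members were higher in BCS24. The mrt4 gene HORVU5Hr1G047980 had 41.9, 39.8 and 50.1 FPKM in BCS24 drought libraries, against 30.2, 37.5 and 37.7 FPKM in BCS8 drought libraries (0.39 ± 0.12, adjusted p = 0.0374), and 54.3, 52.4 and 57.3 FPKM in BCS24 control, against 33.8, 34.6 and 30.7 FPKM in BCS8 control libraries (0.71 ± 0.12, adjusted p = 0.00365). Its call in control held in all 23 alternatives. Its call under drought was lost in 11 of 23, among them those without BCS24 drought replicate 1 or 3, BCS24 control replicate 1 or 3, BCS8 drought replicate 1 or 2, or BCS8 control replicate 1, at 0.29 to 0.44. HORVU7Hr1G103380, without an orthology number, was higher by 1.23 ± 0.20 and 0.71 ± 0.20 (adjusted p = 0.00237 and 0.0327), and its call in control was lost without BCS24 control replicate 2 or 3 or BCS8 control replicate 1 or 2, at 0.56 to 0.75. HORVU7Hr1G103550, also without one, was higher under drought, at 0.54 ± 0.13 (adjusted p = 0.0149), a call lost without BCS24 drought replicate 1, at 0.53. The only eukaryotic-type member called higher was the low L23e gene HORVU6Hr1G090150, at 1.18 ± 0.085 against 0.811 ± 0.14 FPKM under drought and 1.59 ± 0.057 against 1.06 ± 0.12 FPKM in control. Its call in control was lost without BCS24 control replicate 2 or 3 or BCS8 control replicate 1 or 2, at 0.47 to 0.59.

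The second question was how the transcripts responded to drought, and here single members moved little. No member passed the threshold in BCS24, where 2.65% of all tested genes did, and none in BCS8, where 1.53% did. At an unadjusted p under 0.05, 22 members were higher and 1, HORVU6Hr1G014970, lower in BCS24, where 10.9% of all tested genes were higher and 9.77% lower. In BCS8 14 members were higher and 4 lower, against 9.09% and 7.16% of all tested genes. The 4 were HORVU6Hr1G026200, HORVU6Hr1G090150, HORVU7Hr1G103380 and HORVU7Hr1G103550. DESeq2 called 5 members higher and 1 lower in BCS24, where it called 10.4% of all tested genes. In BCS8, where it called 6.82%, it called 1 member higher, the L10Ae gene HORVU4Hr1G001350 at 0.29 (adjusted p = 0.0316).

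Without overlap between the conditions in FPKM, 8 members were higher and 9 lower in BCS24, against 7.69% and 23.2% of all tested genes. In BCS8 9 were higher and 10 lower, against 7.83% and 11.9%. As shares of members these are 3.67% and 4.13% in BCS24 and 4.13% and 4.59% in BCS8.

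The summed level was also close between conditions. BCS24 averaged 7616 ± 574 FPKM under drought and 7575 ± 843 FPKM in control, and BCS8 averaged 11272 ± 1552 and 10701 ± 663 FPKM (SD, n = 3). The libraries of the conditions overlapped in both accessions. The median log2 fold change of the members, drought over control, was 0.13 in BCS24 (165 of 218 positive) and 0.15 in BCS8 (181 positive), against -0.0013 and 0.02 over all tested genes. On the log2(FPKM + 1) scale, where the median of all tested genes in BCS24 moved to -0.10, the median of the members in BCS24 was -0.00076. It was 0.08 in BCS8 on that scale. Relative to the median of all tested genes, the members' median in BCS24 stood 0.13 higher by edgeR and 0.10 higher on log2(FPKM + 1).

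By mean, drought over control, family sums were higher for 38 of 72 families in BCS24 and 61 of 72 in BCS8. All 72 log2 ratios in BCS24 lay within 0.25 of 0, against 66 in BCS8. These sums are of FPKM without further scaling. On the log2(FPKM + 1) scale the median of all tested genes was -0.10 in BCS24 and -0.02 in BCS8, so the 2 counts of families are not on a common footing. S21e was the only family without overlap in BCS8, where 5.56% of all sums by orthology number were higher without overlap. There HORVU2Hr1G019960 had 12.04, 15.9 and 15.3 FPKM under drought, against 9.86, 12.04 and 11.4 FPKM in control. It did not pass the test, at 0.42 (adjusted p = 0.227).

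With both accessions averaged, 1 member rose under drought, where 6.87% of all tested genes passed in either direction. HORVU1Hr1G068940 is a low large subunit gene without an orthology number (1H, 482719740 to 482727239, plus strand). It had 0.914, 2.102 and 0.921 FPKM in BCS24 drought libraries, against 0.862, 0.731 and 0.538 FPKM in BCS24 control libraries, and 3.55, 3.45 and 1.43 FPKM in BCS8 drought, against 1.499, 1.20 and 1.16 FPKM in BCS8 control libraries. The log2 fold change was 1.08 ± 0.28 (adjusted p = 0.0434), and the FPKM ranges overlapped in BCS8. It overlaps HORVU1Hr1G068930, another member, on the opposite strand (482719290 to 482727235), and since use of the strand in counting is not given, reads of the 2 genes may not be told apart. The call was lost with no filter, with quantile normalization, with the rRNA share as a covariate and on both FPKM scales. Of the libraries left out in turn, it held without BCS24 drought replicate 1, BCS24 drought replicate 3 or BCS8 drought replicate 3 and was lost without any of the others. DESeq2, which called 13.5% of all tested genes for this mean, called HORVU1Hr1G068940, the S21e gene HORVU2Hr1G019960, the L10Ae gene HORVU4Hr1G001350 and the S29e gene HORVU4Hr1G037800 higher and HORVU6Hr1G026200 and the L23e gene HORVU6Hr1G090150 lower.

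Among members at 5 FPKM or more in the higher condition, the 6 with the largest drought differences in BCS24 without overlap were 5 bacterial-type genes and HORVU6Hr1G014970, and none passed the threshold. The low gene HORVU1Hr1G068940 had a larger difference in BCS24, of 1.002 on the log2 scale. The chloroplastic L5 gene HORVU4Hr1G084410 had 21.7, 29.3 and 20.9 FPKM in BCS24 drought, against 17.2, 16.04 and 12.5 FPKM in BCS24 control libraries (0.78 ± 0.20, adjusted p = 0.064). The chloroplastic S17 gene HORVU7Hr1G115040 had 144, 161 and 174 FPKM in BCS24 drought, against 122, 96.2 and 98.8 FPKM in BCS24 control libraries (0.72 ± 0.20, adjusted p = 0.0804). Log2 fold changes were 0.71 for the chloroplastic S9 gene HORVU5Hr1G098340, 0.59 for the L13 gene HORVU3Hr1G071530 and 0.55 for the S5 gene HORVU4Hr1G038570 (adjusted p = 0.142, 0.126 and 0.122).

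In the other direction, HORVU6Hr1G014970, the gene with both subunit terms, had 13.2, 12.7 and 15.2 FPKM in BCS24 drought, against 22.6, 23.5 and 21.6 FPKM in BCS24 control libraries (-0.59 ± 0.15, adjusted p = 0.0575). By DESeq2 this gene was called lower (adjusted p = 0.0051), and L5, S17, L13, S5 and the L1 gene HORVU1Hr1G056510 were called higher, with adjusted p between 0.00685 and 0.0481. In BCS8 the 5 bacterial-type genes L5, S17, S9, L13 and S5 had log2 fold changes of -0.08, 0.02, 0.06, -0.06 and 0.05. The 5 were picked for their large differences in BCS24, so they cannot serve to compare the accessions.

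In BCS8 the largest differences without overlap among members at that level, none past the threshold, were in HORVU3Hr1G079990, which has no orthology number, at 0.85 (adjusted p = 0.218) and in the S20e gene HORVU5Hr1G013360 at 0.64 (adjusted p = 0.249). HORVU7Hr1G103380, HORVU7Hr1G103550 and HORVU6Hr1G026200, none with an orthology number, stood at -0.49, -0.41 and -0.37 (adjusted p = 0.253, 0.159 and 0.192).

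Whether drought acted differently in the accessions was tested as an interaction, and edgeR called 0 members and 0 genes of the 17342 tested (0%). At an unadjusted p under 0.05, 7 members were higher and 1, HORVU6Hr1G014970, lower, against 5.37% and 7.12% of all tested genes. DESeq2, which called 3.63% of all tested genes, called 1 member, HORVU7Hr1G103550, whose drought effect was 0.65 higher in BCS24 than in BCS8 (adjusted p = 0.0476, against 0.225 by edgeR). The median interaction over members was -0.02, and over the 18 bacterial-type members it was 0.26.

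Other parts of the translation apparatus give the setting for these values, each list being taken from ontology terms or gene types and holding no member. Mitochondrial ribosome genes had median log2 fold changes, BCS24 over BCS8, of -0.30 under drought (5 of 34 lower, 1 higher) and -0.43 in control (8 lower). Ribosome biogenesis genes, which build the subunits in the nucleolus, stood at 0.11 (2 of 34 lower, 3 higher) and -0.26 (5 lower, 2 higher), and rRNA processing genes at 0.19 (5 of 53 lower, 11 higher) and -0.10 (5 lower, 7 higher). Preribosome genes had medians of 0.04 (5 of 65 lower, 7 higher) and -0.04 (4 lower, 3 higher).

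Initiation factors, which bring messages to the small subunit, had medians of 0.04 (4 of 62 lower, 6 higher) and -0.08 (4 lower, 5 higher). Elongation factors, which move the ribosome along, stood at 0.04 (1 of 33 lower, 8 higher) and -0.02 (4 lower, 4 higher), and tRNA aminoacylation genes at 0.25 (1 of 11 lower, 3 higher) and 0.20 (4 lower, 3 higher). Genes of the proteasome core, another large complex of many subunits, had medians of -0.13 (4 of 27 lower) and -0.18 (2 lower). A list of plastid ribosome genes by ontology term held no tested gene outside the members. Differences between these lists and the members were not tested.

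Ribosomal proteins are small, and gene length went with the accession difference. Among tested genes that are no member, the median log2 fold change was -0.23 in the shortest of 5 equal classes by transcript length and 0.20 in the longest under drought, and -0.08 and 0.17 in control. Of the members, 115 were in the shortest class, where their medians were -0.62 and -0.57. In the longest class 21 members had medians of -0.27 and -0.23. The members' median was below that of the other genes in each of the 5 classes in both conditions, and the part of length in the result was not tested.

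Transcript forms were compared between the groups. The deposited transcript table listed 848 transcripts for the 218 members, and 193 members were counted as having the same most abundant transcript in all 4 groups. These 193 include 38 members with only 1 listed transcript, for which no other outcome was possible. They also include the L37e genes HORVU0Hr1G003790 and HORVU0Hr1G030060. Neither had any transcript level in BCS24 control, so no transcript was the most abundant there. The share over all tested genes was not computed. In 7 members the most abundant transcript differed between the accessions in both conditions.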

How the data were processed

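Leaf poly(A) RNA was sequenced in stranded libraries, per the labels' protocols. The authors deposited whole-number counts and FPKM per gene and per transcript, per the file headers. The submitters' processing notes name StringTie 2.1.6, DESeq2 and edgeR without their roles. An aligner or build was not given in the sources used here. Genes at 1 FPKM or more in 3 or more libraries (17342) were tested in edgeR 4.0.16 (R 4.3.3): TMM scaling, 1 coefficient per group over 12 libraries, quasi-likelihood F test, Benjamini-Hochberg adjustment, threshold 0.05. SE was taken as the log2 fold change divided by root F. Members came from ontology terms, families from orthology numbers. The members and gene lists were chosen with earlier results of these data known. Named genes are the 5 highest and 2 lowest members per subunit, the 8 largest called changes per direction, subunit and comparison, the 6 largest without overlap and at 5 FPKM or more in the higher group where fewer than 4 passed, and members of the 5 families whose shares shifted most. DESeq2 1.42.0, limma 3.58.1 and other scalings, filters and left-out libraries were alternatives. Same-numbered drought libraries of the accessions had weak positive correlations of their deviations (0.143, 0.267 and 0.185), and those of other groups did not throughout. Libraries of different numbers were not compared and the labels state no pairs, so a pairing is not shown. On simulated counts the test recovered 83 of 100 genes changed by 2 and 37 of 100 changed by 1 on the log2 scale. Bounds used 3 counts per library, and intervals cover counting error only.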

Additional observations from a re-analysis of the deposited data

How the results depend on the processing

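The direction of the accession difference held under every alternative tried, with the median log2 fold change of the members between -0.64 and -0.44 under drought and between -0.63 and -0.45 in control, while the number of members called did not. Leaving out 1 library gave 45 to 146 calls under drought (127 with all libraries) and 28 to 125 in control (118). Using only the libraries compared gave 28 calls under drought, and the rRNA share as a covariate gave 50 under drought and 62 in control. For these fits the shares of all tested genes called are not given here. In the drought comparisons DESeq2 called 6 members in BCS24, 1 in BCS8, 6 for the mean of the accessions and 1 in the interaction, where edgeR called 0, 0, 1 and 0. Limma on log2(FPKM + 1) and on log2(FPKM + 0.1) called 1 member in BCS24 on each scale, and 2 for the mean, both lower, HORVU6Hr1G014970 and HORVU6Hr1G026200. Quantile normalization called 1 for the mean, HORVU6Hr1G026200, lower. No filter, the rRNA covariate and a restriction to eukaryotic-type members, the last chosen after seeing the data, each called 0 for the mean. Leaving out 1 library gave 0 to 1 calls in BCS24, 0 in BCS8, 0 to 3 for the mean and 0 in the interaction. With the replicate number as a replicate block, 117 members were called between the accessions under drought and 98 in control. For drought against control this fit called 0 members in BCS24, 0 in BCS8, 1 for the mean and 0 in the interaction. The block thus changed no count by over 1.5 times. Over the named genes, 1101 values kept their direction and side of the threshold, 103 lost it, 13 gained it and 0 reversed. The causes were not tested.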

Other observations

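The lists here were not compared by a test with the ribosomal protein genes. Genes typed as rRNA had a median log2 fold change, BCS24 over BCS8, of -1.48 under drought, with 106 of 235 called lower, and of 0.86 in control, with 0 lower and 1 higher. Their summed FPKM was 6398 ± 3252 in BCS24 drought, 17187 ± 9545 in BCS24 control, 20856 ± 8452 in BCS8 drought and 9967 ± 2933 in BCS8 control libraries (SD, n = 3). Libraries were selected for poly(A) tails, so these values need not reflect the rRNA level of the leaves. Why these reads were present was not tested. Genes typed as snoRNA, the guides of rRNA modification, had medians of -0.27 (12 of 96 lower, 3 higher) and -0.38 (15 lower, 2 higher).

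Genes of dividing cells had medians between -0.23 and 0.13. Nucleosome genes stood at -0.23 under drought (7 of 33 lower, 3 higher) and -0.02 in control (4 lower, 2 higher), and DNA replication genes at 0.13 (1 of 19 lower, 6 higher) and 0.02 (0 lower, 6 higher). As shares, 31.6% of DNA replication genes were higher in each condition, against 13.3% and 9.98% of all tested genes. Of nucleosome genes 21.2% and 12.1% were lower, against 14.1% and 9.15%. Leaf senescence genes had medians of -0.08 (20 of 76 lower, 16 higher) and 0.11 (8 lower, 8 higher). Photosystem II genes had medians of 0.06 (1 of 21 lower, 2 higher) and -0.32 (3 lower, 1 higher), and in BCS24 their median drought difference was 0.53, with 10 higher at an unadjusted p under 0.05 and 0 past the threshold upward. Photosystem I genes had medians of 0.18 (1 of 9 lower) and 0.02 (2 higher). The single tested light harvesting gene, at -0.996 and -1.03, did not pass. The part of these differences in the ribosomal protein result was not tested.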
